A study of Mus musculus with 8 samples.

Results

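RAB genes encode small GTPases of vesicle traffic, and they were selected in the deposited table by their symbols: Rab, a number and at most 1 further letter. The rule found 56 of the 23235 genes in the table. Symbols such as Rab7l1, Rabl2, Rabl3, Rabl5 and Rab42-ps lie outside it. The RNA came from mouse ovarian granulosa cells, which surround and feed the oocyte and make estradiol. The 4 groups given by the labels hold 2 libraries each: CNOT6/6L KO at 44 h after PMSG, CNOT6/6L KO without treatment (0 h), WT at 44 h after PMSG and WT without treatment (0 h), all from female C57BL/6 animals. PMSG is a gonadotropin with follicle-stimulating activity, and CNOT6 and CNOT6L are deadenylases of the CCR4-NOT complex, which shortens poly(A) tails. The labels give no age, dose, Cre driver or construct of the KO, and whether the libraries of a group stem from different animals is not said. P-values therefore reflect the spread between libraries alone, and that spread could be technical. The study's title addresses how degradation of mRNA by CNOT6/6L bears on follicle growth under gonadotropin.

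A RAB protein switches between a GDP-bound form held in the cytosol and a GTP-bound form on a membrane, where it recruits effectors that move, tether or fuse vesicles. Guanine nucleotide exchange factors (GEFs) turn RABs on, GTPase-activating proteins (GAPs) turn them off, and a geranylgeranyl anchor, attached with the help of Rab escort proteins, holds them to the membrane. Granulosa cells take up lipoproteins, recycle gonadotropin receptors, secrete inhibins, and store cholesterol esters in lipid droplets, all of which pass through compartments that RABs mark.

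The promoters of 7 members are shown because 5 of them (Rab3a, Rab27a, Rab31, Rab20 and Rab33a) were the members higher at 44 h in WT in the fit of WT libraries described below, Rab3b is the Rab3a paralog that went the other way, and Rab5a held 3 of the 5 motifs searched. Each runs from 250 bases before to 50 bases after the first RefSeq start listed (GRCm38.p6), read 5′ to 3′ on the gene's strand. Capitals mark matches, on either strand, to any of 5 motifs, named after the sequences.
Rab3a (chr8:70754453-70754752, plus strand): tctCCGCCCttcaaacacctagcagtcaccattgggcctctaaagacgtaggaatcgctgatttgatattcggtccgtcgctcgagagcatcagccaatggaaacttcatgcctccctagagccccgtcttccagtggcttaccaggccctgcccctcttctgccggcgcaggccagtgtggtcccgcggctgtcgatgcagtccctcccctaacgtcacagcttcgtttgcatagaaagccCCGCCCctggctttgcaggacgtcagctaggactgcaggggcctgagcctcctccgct
Rab27a (chr9:73044560-73044859, plus strand): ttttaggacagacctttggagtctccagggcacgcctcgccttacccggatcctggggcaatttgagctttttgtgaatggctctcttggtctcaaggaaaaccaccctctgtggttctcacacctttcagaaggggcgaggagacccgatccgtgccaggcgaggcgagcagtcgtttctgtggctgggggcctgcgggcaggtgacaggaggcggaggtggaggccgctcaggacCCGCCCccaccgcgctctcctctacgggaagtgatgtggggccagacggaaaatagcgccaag
Rab31 (chr17:65772703-65773002, minus strand): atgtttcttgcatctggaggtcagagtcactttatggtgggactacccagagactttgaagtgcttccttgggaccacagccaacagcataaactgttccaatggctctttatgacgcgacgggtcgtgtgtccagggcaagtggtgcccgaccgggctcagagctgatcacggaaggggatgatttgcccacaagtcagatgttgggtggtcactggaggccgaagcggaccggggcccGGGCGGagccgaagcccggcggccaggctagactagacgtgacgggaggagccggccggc
Rab20 (chr8:11478591-11478890, minus strand): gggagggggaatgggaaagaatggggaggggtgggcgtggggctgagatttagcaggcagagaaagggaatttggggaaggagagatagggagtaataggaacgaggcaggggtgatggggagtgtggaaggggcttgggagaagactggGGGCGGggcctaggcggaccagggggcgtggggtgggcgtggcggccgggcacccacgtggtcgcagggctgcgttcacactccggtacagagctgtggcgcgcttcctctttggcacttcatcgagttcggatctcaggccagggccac
Rab33a (chrX:48519035-48519334, plus strand): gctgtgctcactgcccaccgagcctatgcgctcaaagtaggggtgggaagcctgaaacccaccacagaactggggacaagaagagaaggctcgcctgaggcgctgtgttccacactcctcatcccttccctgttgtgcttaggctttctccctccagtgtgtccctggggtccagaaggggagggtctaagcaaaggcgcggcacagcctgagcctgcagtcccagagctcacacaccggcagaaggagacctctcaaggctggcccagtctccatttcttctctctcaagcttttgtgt
Rab3b (chr4:108878820-108879119, plus strand): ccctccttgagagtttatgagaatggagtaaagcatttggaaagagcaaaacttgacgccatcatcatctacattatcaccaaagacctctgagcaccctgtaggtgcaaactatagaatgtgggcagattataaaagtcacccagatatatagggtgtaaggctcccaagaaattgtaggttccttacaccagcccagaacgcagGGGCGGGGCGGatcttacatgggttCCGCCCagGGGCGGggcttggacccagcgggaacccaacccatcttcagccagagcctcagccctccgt
Rab5a (chr17:53478984-53479283, plus strand): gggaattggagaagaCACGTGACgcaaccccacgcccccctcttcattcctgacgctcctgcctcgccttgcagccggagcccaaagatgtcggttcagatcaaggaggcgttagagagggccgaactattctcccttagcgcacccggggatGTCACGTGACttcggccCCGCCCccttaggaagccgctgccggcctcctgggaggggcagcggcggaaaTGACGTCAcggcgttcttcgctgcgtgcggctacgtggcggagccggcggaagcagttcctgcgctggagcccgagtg

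RefSeq promoters were found for 46 of the 56 members (Rab1 under the symbol Rab1a). The cAMP response element TGACGTCA lay in 2 of the 46 (Rab25 and Rab5a; 4.35%), and in 2.03% of all 27025 genes with a promoter. The CLEAR core GTCACGTG, known from lysosomal genes, lay in Rab21, Rab24 and Rab5a (6.52%, and 2.55% of all genes); in Rab5a its 3 matches include a pair that overlap on opposite strands. The AP-1 element TGAGTCA lay in Rab15, Rab34 and Rab39b (6.52%, and 5.95% of all genes), and the SF-1 element CAAGGTCA in 0 of the 46 (1.76% of all genes). The GC box GGGCGG, added after the sequences were seen, lay in 35 of the 46 (76.1%, and 38.2% of all genes), the median GC content being 62.3% for members and 52.7% for all genes. Of the 5 promoters shown for members higher at 44 h in WT, 4 held a GC box, and Rab33a held none of the 5 motifs. Matches describe letters in these windows and not factor binding.

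The library labelled KO replicate 1 at 44 h stood apart from its partner: 1527 genes differed by at least 1 (log2) within that pair, against 432 in KO cells at 0 h, 382 in WT cells at 44 h and 317 in WT cells at 0 h. Lhcgr, the luteinizing hormone receptor that PMSG is known to raise in granulosa cells, had 18.8 and 261 FPKM in 44 h KO cells against 299 and 308 FPKM in 44 h WT cells, and 2.53 and 1.41 FPKM in 0 h KO cells against 5.33 and 2.28 FPKM in 0 h WT cells. Cnot6 had 26.7 and 17.4 FPKM in 44 h KO cells against 26.0 and 26.9 FPKM in 44 h WT cells, and 11.7 and 12.01 FPKM in 0 h KO cells against 29.1 and 18.4 FPKM in 0 h WT cells, so that this library lay within the WT range. Cnot6l had 2.01 and 1.61 FPKM in 44 h KO cells against 4.20 and 2.63 FPKM in 44 h WT cells, and 4.69 and 1.97 FPKM in 0 h KO cells against 6.11 and 7.07 FPKM in 0 h WT cells. Neither targeted gene was called in either genotype comparison (limma, called at an adjusted p under 0.05 over all tested genes), and gene-level FPKM does not show which exons were deleted. Foxl2, which defines granulosa cells, had 24.4 and 24.9 FPKM in 44 h KO cells, 15.9 and 15.5 in 0 h KO cells, 25.2 and 18.6 in 44 h WT cells and 15.8 and 14.1 in 0 h WT cells.

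Taken over all 56 genes, RABs made up 0.260% to 0.322% of the FPKM of a library (FPKM divide the fragments of a gene by its length and by the size of the library, so levels of different genes can be set side by side). Their summed FPKM was 1960.1 and 2165 in 44 h KO cells, 1840.4 and 1861 in 0 h KO cells, 2284 and 2267 in 44 h WT cells and 2061 and 1974 in 0 h WT cells. The WT sums at 44 h were the highest pair, and the KO sums at 0 h the lowest. Levels spanned a wide range: 47 members reached 1 FPKM in at least 2 libraries and entered the tests, out of 13688 genes tested. The 9 that did not (Rab15, Rab17, Rab26, Rab37, Rab39, Rab3c, Rab44, Rab6b and Rab9b) had mean levels between 0.0395 and 0.448 FPKM. Among these, Rab37, a secretory granule RAB, reached 1.80 FPKM in WT replicate 1 at 44 h and was listed at 0 in WT replicate 2 at 44 h.

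**Figure D1:**
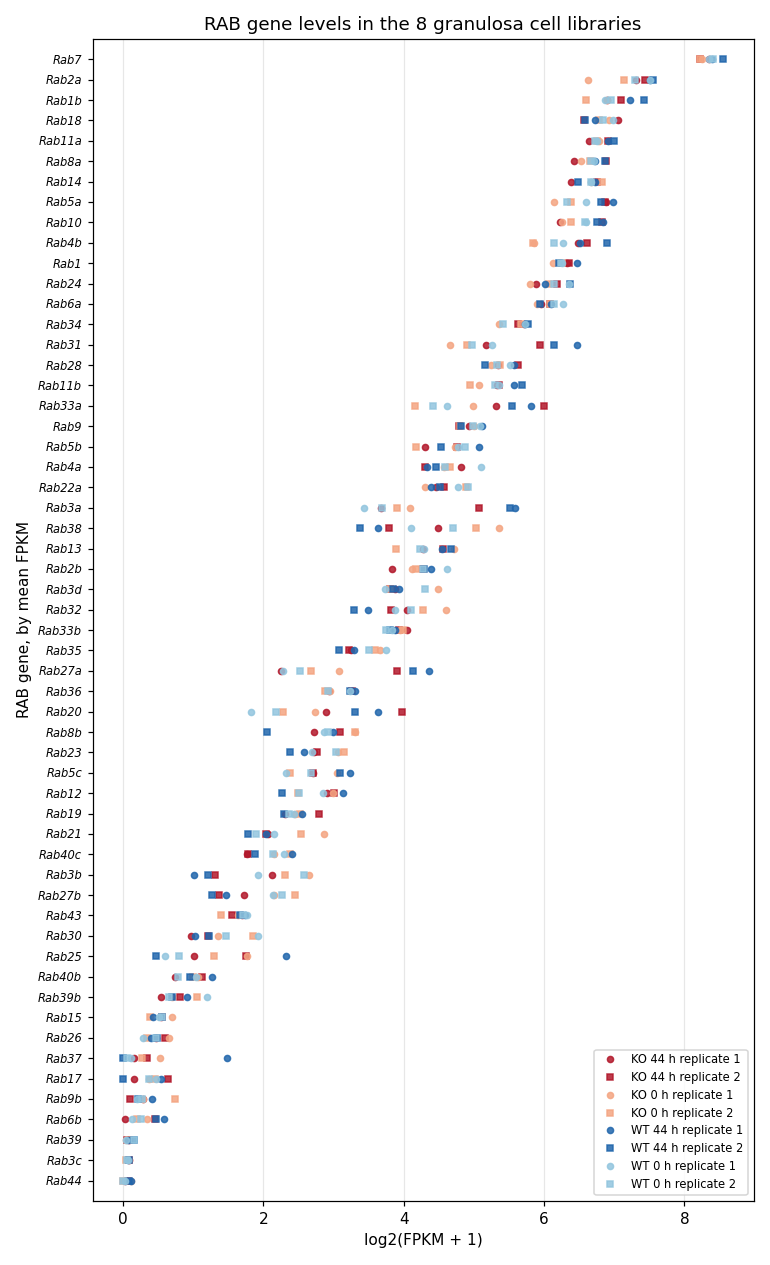
Level of each of the 56 RAB genes, log2(FPKM + 1), in the 8 libraries; each row is a gene, ordered by mean FPKM, and each point a library. Rab7, at a mean of 325 FPKM, leads the family, and the 9 genes that did not reach the tested set lie at the bottom.

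The 5 most abundant members serve traffic routes common to most cells, and none was called in any comparison. Rab7, which carries late endosomes to lysosomes, had 326 and 298 FPKM in 44 h KO cells, 304 and 297 in 0 h KO cells, 335 and 375 in 44 h WT cells and 325 and 339.7 in 0 h WT cells. It ranked 384 of the 23235 genes by mean level. Rab2a, which acts between the endoplasmic reticulum (ER) and the Golgi, had 158 and 173 FPKM in 44 h KO cells, 97.5 and 140.3 in 0 h KO cells, 182 and 188 in 44 h WT cells and 181 and 157 in 0 h WT cells. The KO libraries at 0 h were the lowest pair for Rab2a, below both WT libraries at 0 h, but the difference of -0.52 ± 0.20 log2 units (limma, adjusted p = 0.475) did not pass the test. Rab1b, which drives ER-to-Golgi transport, averaged 128 FPKM. Rab18, found on lipid droplets and the ER, had 132 and 93.9 FPKM in 44 h KO cells, 120.3 and 109.6 in 0 h KO cells, 104 and 95.3 in 44 h WT cells and 125 and 114 in 0 h WT cells, with overlap in KO and lower values at 44 h in WT. Rab11a, of slow recycling through the perinuclear endosome, had 99.2 and 119 FPKM in 44 h KO cells, 109 and 107 in 0 h KO cells, 119.9 and 127 in 44 h WT cells and 107 and 105 in 0 h WT cells. In the order of means Rab7 stood apart from Rab2a, while the means of Rab18 and Rab11a (111.8 and 111.7 FPKM) did not differ beyond their spread between libraries.

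By role, RABs of the ER, Golgi and lipid droplets (15 members) held 31.5% to 34.8% of the family's FPKM, those of late endosomes, lysosomes and autophagy (5) 18.6% to 22.5%, recycling endosomes (9) 17.2% to 18.4%, secretory and polarised exocytosis (12) 11.1% to 14.9%, early endosomes (7) 8.55% to 12.6%, cilium and other roles (6) 1.90% to 2.93%, and lysosome-related organelles (2) 0.803% to 3.44%. The early endosome share was 10.5% and 11.5% in 44 h KO cells against 8.55% and 9.11% in 0 h KO cells, and 12.6% and 10.7% in 44 h WT cells against 9.53% and 9.05% in 0 h WT cells. Its values at 44 h did not overlap those at 0 h in either genotype. The share weighs most on its most abundant members, Rab5a and Rab31, which were both higher at 44 h in each genotype. Of the 7 members, 4 were above 0 (log2) and 3 below at 44 h in WT, and 5 above and 2 below in KO. The lysosome-related share moved the other way, at 1.89% and 1.20% in 44 h KO cells against 3.44% and 2.70% in 0 h KO cells, and 0.949% and 0.803% in 44 h WT cells against 1.45% and 2.08% in 0 h WT cells.

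The first comparison asked which RABs differed 44 h after PMSG in WT cells. In the model fitted to all 8 libraries (limma on log2(FPKM + 1), adjusted over all 13688 genes; differences are log2 units ± SE), no RAB was called, where 0.0804% of all genes were (11 genes). At an unadjusted p under 0.05, 14 of the 47 RABs passed (9 higher, 5 lower), where 24.1% of all genes did. That model pools the spread of the KO libraries at 44 h with that of the other groups. With only the 4 WT libraries in the fit, 5 RABs were called, all higher at 44 h, where 6.90% of all genes were called (945 genes). The 5 were Rab3a, Rab27a, Rab31, Rab33a and Rab20, and the same 5 were called when a KO library at 44 h was left out of the model of all groups, with 9.74% of all genes called without replicate 1 and 9.72% without replicate 2. Leaving out a KO library does not touch the WT values. The WT differences were therefore the same in each of these fits, and only the estimated spread changed. The repeated call of these 5, out of 47 tested, adds no separate support. With only the 2 groups compared, the other comparisons called no RAB: 0.0658% of all genes were called for 44 h against 0 h in KO, 0.0438% for KO against WT at 44 h and 0.0511% for KO against WT at 0 h.

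Rab3a, the RAB of regulated exocytosis best known from synaptic vesicles, had 47.1 and 44.5 FPKM in 44 h WT cells against 9.78 and 11.9 FPKM in 0 h WT cells. Both WT libraries at 44 h lay above every other library. Its difference was 1.99 ± 0.41 log2 units (limma, adjusted p = 0.0893) in the model of all groups and 1.99 ± 0.16 (limma, adjusted p = 0.00581) in the fit of WT libraries. Rab27a, which docks secretory granules and lysosome-related organelles at the plasma membrane, had 19.6 and 16.5 FPKM in 44 h WT cells against 3.85 and 4.74 FPKM in 0 h WT cells. Again the 2 groups did not overlap, and the difference was 1.85 ± 0.49 log2 units (limma, adjusted p = 0.110) in the model of all groups and 1.85 ± 0.20 (limma, adjusted p = 0.0109) in the WT fit.

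Rab31, which sorts cargo between the trans-Golgi network and endosomes, had 87.3 and 69.4 FPKM in 44 h WT cells against 37.4 and 30.6 FPKM in 0 h WT cells. This made a difference of 1.18 ± 0.27 log2 units (limma, adjusted p = 0.103) in the model of all groups and 1.18 ± 0.18 (limma, adjusted p = 0.0275) in the WT fit. Rab33a, a Golgi RAB, had 55.5 and 45.5 FPKM in 44 h WT cells against 23.5 and 20.5 FPKM in 0 h WT cells. The groups differed by 1.16 ± 0.32 log2 units (limma, adjusted p = 0.114) in the model of all groups and 1.16 ± 0.16 (limma, adjusted p = 0.0236) in the WT fit. Rab20, a RAB of endosomes and maturing phagosomes, was scarcer, at 11.4 and 8.87 FPKM in 44 h WT cells against 2.55 and 3.55 FPKM in 0 h WT cells. The log2 difference was 1.46 ± 0.38 log2 units (limma, adjusted p = 0.110) in the model of all groups and 1.46 ± 0.23 (limma, adjusted p = 0.0311) in the WT fit. All 5 had non-overlapping WT groups, where 22.5% of all genes were higher at 44 h without overlap in WT. The 5 were picked as called higher in the WT fit, so this lack of overlap adds no support. They belong to 3 role groups, with Rab3a and Rab27a in secretion, Rab31 and Rab20 in early endosomes and Rab33a at the Golgi. Markers of other cells that granulosa preparations can hold were summed beside them. The 10 theca and stroma markers summed to 324 and 299 FPKM in 44 h WT cells against 110.1 and 119.8 FPKM in 0 h WT cells, and the 8 surface epithelium markers to 227 and 229 FPKM in 44 h WT cells against 175 and 142 FPKM in 0 h WT cells. The 8 endothelial markers summed to 20.7 and 26.3 FPKM in 44 h WT cells against 7.69 and 12.9 FPKM in 0 h WT cells. All 3 sums were higher at 44 h, none of these markers was listed at 0, and their part in the 5 genes was not tested. In the WT fit 1 of 10 tested theca and stroma markers (Dcn) and 2 of 8 of surface epithelium (Krt7 and Krt19) were called. Of the endothelial markers 2 of 6 tested (Emcn and Cldn5) were called. All were higher at 44 h. That fit called 6.90% of all genes, 546 of the 945 higher. The 10 granulosa markers also summed higher at 44 h in WT, at 17230 and 20480 FPKM against 14745 and 12791 FPKM at 0 h. Of these granulosa markers the WT fit called 2 higher and 1 lower. The 11 immune markers are for cells in which Rab20 and Rab27a are also known. Their sums overlapped, at 288 and 206 FPKM in 44 h WT cells against 208 and 184 FPKM in 0 h WT cells. Of the 10 tested, 9 were above 0 (log2) and 1 below at 44 h in WT, and the WT fit called none. Their part was not tested either.

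**Figure D2:**
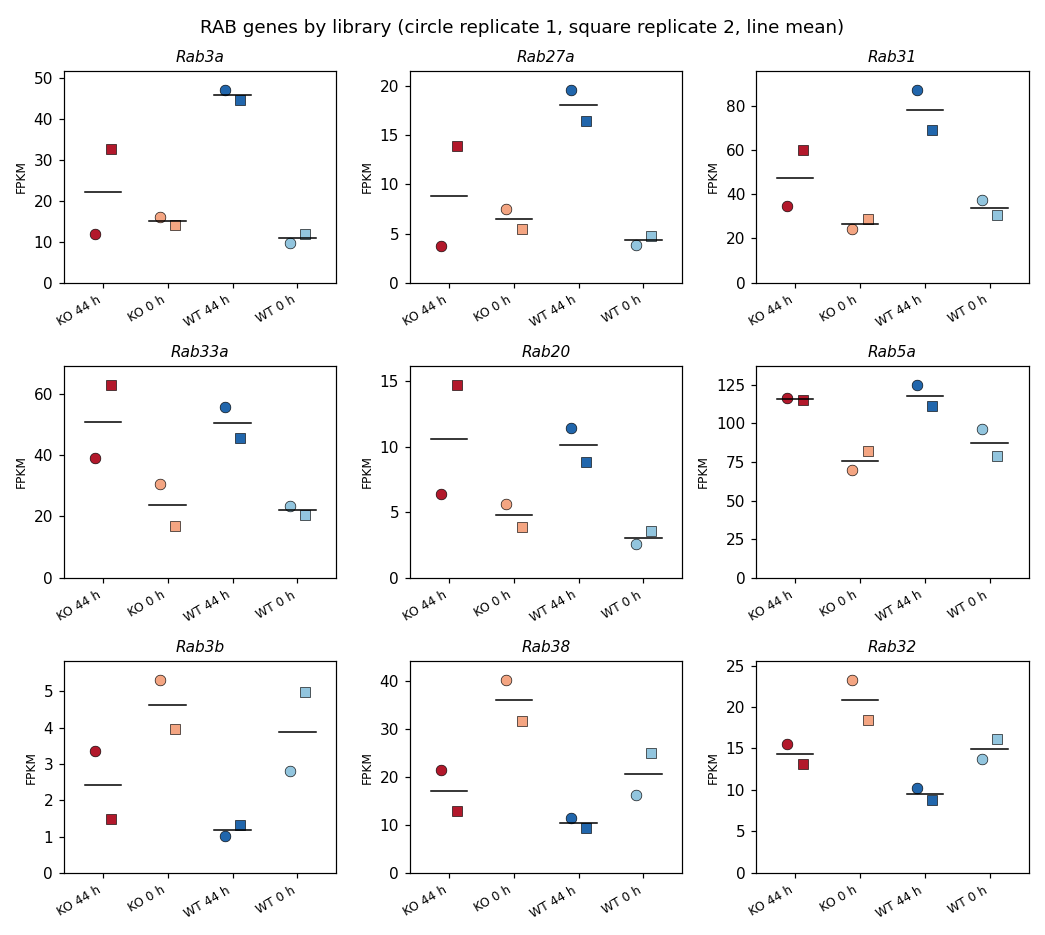
FPKM of 9 RAB genes in each library, by group from left to right KO 44 h, KO 0 h, WT 44 h and WT 0 h; circles are replicate 1, squares replicate 2 and lines group means, and each axis starts at 0. Rab3a, at 47.1 and 44.5 FPKM, is highest in 44 h WT cells, and Rab38, at 40.2 and 31.8 FPKM, is highest in 0 h KO cells.

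In KO cells the 44 h comparison depended on the library. No RAB was called, where 0.139% of all genes were (19 genes), and 11 of 47 had an unadjusted p under 0.05, where 21.1% of all genes did. Rab3a had 11.8 and 32.6 FPKM in 44 h KO cells against 16.1 and 14.0 FPKM in 0 h KO cells. Only replicate 2 lay above the KO 0 h libraries, and the library labelled KO replicate 1 lay below both. Rab27a showed the same order, with 3.75 and 13.9 FPKM in 44 h KO cells against 7.49 and 5.44 FPKM in 0 h KO cells. The differences were 0.38 ± 0.41 log2 units (limma, adjusted p = 0.628) for Rab3a and 0.19 ± 0.49 log2 units (limma, adjusted p = 0.856) for Rab27a. Without KO replicate 2 at 44 h both turned negative, at -0.32 for Rab3a and -0.64 for Rab27a (log2). Among the marker sums, endothelial markers had 9.40 and 30.6 FPKM in 44 h KO cells against 19.0 and 14.1 FPKM in 0 h KO cells, with replicate 1 at 44 h below and replicate 2 above both 0 h libraries. The surface epithelium markers had 136 and 443 FPKM in 44 h KO cells against 142 and 114 FPKM in 0 h KO cells, and the theca and stroma markers 246 and 362 FPKM in 44 h KO cells against 146 and 107 FPKM in 0 h KO cells. In each of these lists replicate 2 was the higher at 44 h, and their part in Rab3a and Rab27a was not tested. The 10 granulosa markers had 29598 and 23364 FPKM in 44 h KO cells against 14711 and 14920 FPKM in 0 h KO cells, with replicate 1 the higher at 44 h.

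The other 3 members called higher in the WT fit, Rab31, Rab33a and Rab20, did not overlap between times in KO either. Of all genes, 14.3% were higher at 44 h without overlap in KO. Rab31 had 34.95 and 60.3 FPKM in 44 h KO cells against 24.3 and 28.8 FPKM in 0 h KO cells. That is a difference of 0.77 ± 0.27 log2 units (limma, adjusted p = 0.176). Rab33a had 39.0 and 62.7 FPKM in 44 h KO cells against 30.7 and 17.0 FPKM in 0 h KO cells. The difference was 1.08 ± 0.32 log2 units (limma, adjusted p = 0.140). Rab20 had 6.43 and 14.7 FPKM in 44 h KO cells against 5.67 and 3.85 FPKM in 0 h KO cells. This made a difference of 0.93 ± 0.38 log2 units (limma, adjusted p = 0.223). In each of the 3, replicate 2 was the higher of the KO libraries at 44 h. Leaving out the library labelled KO replicate 1, 4 RABs were called (8.54% of all genes): Rab3a at 1.07 ± 0.20 (limma, adjusted p = 0.0292), Rab20 at 1.47 ± 0.30 (limma, adjusted p = 0.0383) and Rab31 at 1.16 ± 0.22 (limma, adjusted p = 0.0316) were higher, and Rab38 at -1.40 ± 0.30 (limma, adjusted p = 0.0403) was lower. That fit leaves a single KO library at 44 h, assumed to vary like the other groups.

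Rab5a and Rab4b, of early endosomes and fast recycling, had higher values at 44 h in both genotypes without passing the adjusted test. Rab5a, the RAB that drives fusion of early endosomes, had 117 and 115 FPKM in 44 h KO cells against 69.6 and 82.2 FPKM in 0 h KO cells. The groups differed by 0.61 ± 0.16 log2 units (limma, adjusted p = 0.125). In WT it had 125 and 111 FPKM at 44 h against 96.2 and 79.0 FPKM at 0 h. The log2 difference was 0.43 ± 0.16 log2 units (limma, adjusted p = 0.175). Rab4b, of the fast recycling route, had 88.8 and 97.0 FPKM in 44 h KO cells against 57.1 and 56.2 FPKM in 0 h KO cells. That is a difference of 0.70 ± 0.17 log2 units (limma, adjusted p = 0.113). In WT the same gene had 89.9 and 118 FPKM at 44 h against 76.5 and 69.4 FPKM at 0 h. The difference was 0.50 ± 0.17 log2 units (limma, adjusted p = 0.148). For both genes the libraries at 44 h lay above those at 0 h in either genotype. Rab5c, another early endosome isoform, had 5.56 and 5.56 FPKM in 44 h KO cells against 7.25 and 4.19 FPKM in 0 h KO cells, which overlapped, and 8.40 and 7.55 FPKM in 44 h WT cells against 3.99 and 5.43 FPKM in 0 h WT cells, which did not. Rab11b, of recycling endosomes, had 39.4 and 40.0 FPKM in 44 h KO cells against 32.6 and 29.7 FPKM in 0 h KO cells, and 46.4 and 50.6 FPKM in 44 h WT cells against 39.9 and 38.2 FPKM in 0 h WT cells. Rab1b had 119 and 136 FPKM in 44 h KO cells against 118 and 96.1 FPKM in 0 h KO cells, and 149 and 170.0 FPKM in 44 h WT cells against 116 and 122 FPKM in 0 h WT cells.

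Members lower at 44 h included the RABs of lysosome-related organelles, Rab38 and Rab32, which deliver enzymes to melanosomes in pigment cells. Rab38 had 21.4 and 12.9 FPKM in 44 h KO cells against 40.2 and 31.8 FPKM in 0 h KO cells. This made a difference of -1.06 ± 0.30 log2 units (limma, adjusted p = 0.133). In WT cells Rab38 had 11.4 and 9.38 FPKM at 44 h against 16.2 and 25.0 FPKM at 0 h. The groups differed by -0.90 ± 0.30 log2 units (limma, adjusted p = 0.144). The groups overlapped in neither genotype. Rab32 had 15.5 and 13.2 FPKM in 44 h KO cells against 23.2 and 18.5 FPKM in 0 h KO cells. The log2 difference was -0.50 ± 0.20 log2 units (limma, adjusted p = 0.206). In WT cells Rab32 had 10.3 and 8.83 FPKM at 44 h against 13.7 and 16.2 FPKM at 0 h. That is a difference of -0.59 ± 0.20 log2 units (limma, adjusted p = 0.141). Both genes were also higher in KO than in WT at either time. Rab38 differed between genotypes by 0.64 ± 0.30 log2 units (limma, adjusted p = 0.538) at 44 h and by 0.80 ± 0.30 log2 units (limma, adjusted p = 0.473) at 0 h. For Rab32 the genotype difference was 0.54 ± 0.20 log2 units (limma, adjusted p = 0.497) at 44 h and 0.45 ± 0.20 log2 units (limma, adjusted p = 0.521) at 0 h.

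Oocyte transcripts followed the same order of groups. The summed FPKM of 19 oocyte markers was 3353 and 1964 in 44 h KO cells, 7059.7 and 6071 in 0 h KO cells, 1353 and 1385 in 44 h WT cells and 2485 and 4249.8 in 0 h WT cells. All 18 tested markers were below 0 (log2) in both 44 h comparisons and above 0 in both genotype comparisons. None was listed at 0, and the model of all groups called 1, lower at 44 h in KO. The fit of WT libraries called 5 lower at 44 h (Gdf9, Nlrp5, Nobox, Dazl and Npm2), where it called 6.90% of all genes. Gdf9, a growth factor made by oocytes, had 561 and 347 FPKM in 44 h KO cells, 1200.1 and 1055 in 0 h KO cells, 228 and 237 in 44 h WT cells and 452 and 743 in 0 h WT cells. Ranked by Rab38, the 8 libraries stood in the order given by the oocyte marker sum, except that the WT libraries at 44 h changed places with each other. The part of oocyte RNA in the Rab38 and Rab32 values was not tested. For Rab3a and Rab27a the WT values at 44 h were the highest, where the oocyte sum was lowest. In these bulk libraries fewer cells of a type and less RNA per cell cannot be told apart.

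**Figure D3:**
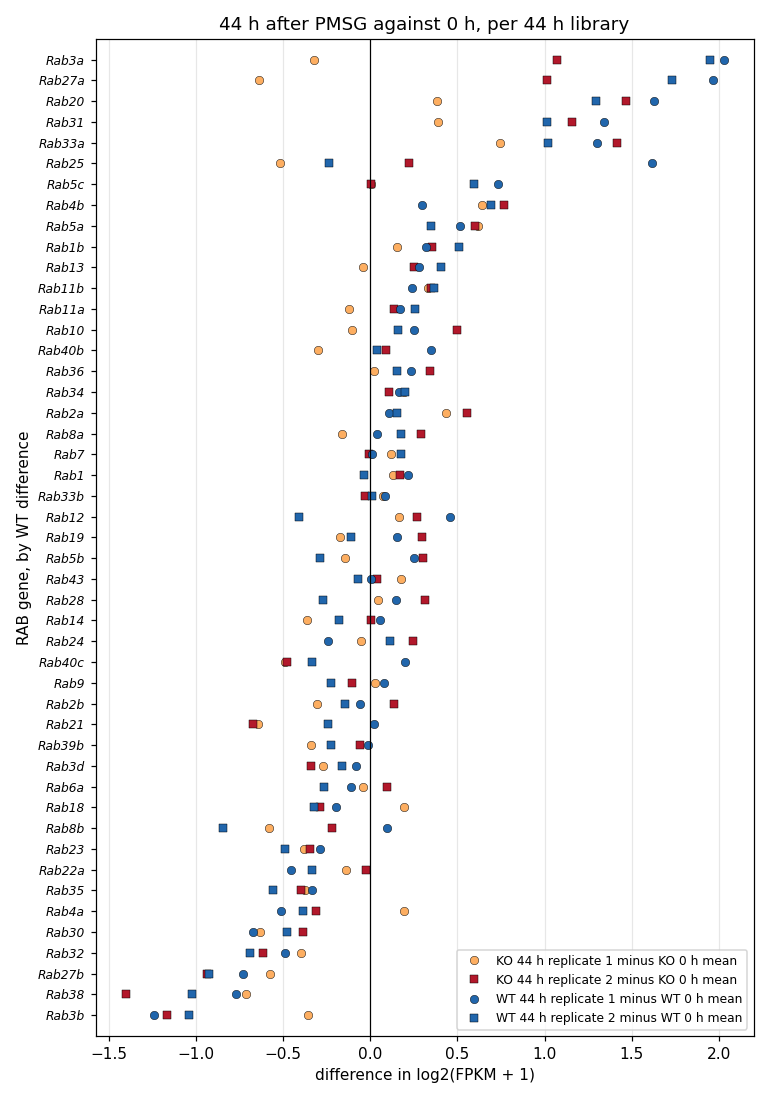
Difference of each 44 h library from the mean of the 0 h libraries of its own genotype, log2(FPKM + 1), for the 47 tested RAB genes, ordered by the mean WT difference. Rab3a, Rab27a, Rab20, Rab31 and Rab33a lie at the top in WT, and Rab3a and Rab27a are below 0 in KO replicate 1 at 44 h.

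Of the 15 paralog pairs set side by side, 5 had WT values at 44 h above the 0 h values in one member and below them in the other, with no overlap: Rab3a and Rab3b, Rab27a and Rab27b, Rab31 and Rab22a, Rab4b and Rab4a, and Rab6a and Rab6b, the last of which did not enter the tests. In KO none of the 15 did. Of all genes, 22.5% were higher and 40.6% lower at 44 h without overlap in WT, and 14.3% and 34.1% in KO. Rab3b and Rab27b are the close relatives of Rab3a and Rab27a in secretion; Rab3b, like the other partners in the ratios, was chosen after its values were seen. Rab3b had 3.36 and 1.49 FPKM in 44 h KO cells, 5.30 and 3.95 in 0 h KO cells, 1.02 and 1.32 in 44 h WT cells and 2.80 and 4.98 in 0 h WT cells. Its difference at 44 h in WT was -1.14 ± 0.35 log2 units (limma, adjusted p = 0.127), and the 2 WT groups did not overlap. Rab27b had 2.32 and 1.58 FPKM in 44 h KO cells, 3.46 and 4.48 in 0 h KO cells, 1.77 and 1.42 in 44 h WT cells and 3.38 and 3.83 in 0 h WT cells, and its difference was -0.76 ± 0.23 log2 units (limma, adjusted p = 0.141) in KO and -0.83 ± 0.23 log2 units (limma, adjusted p = 0.113) in WT. Neither gene passed the test. The oocyte marker sums were likewise lower at 44 h in each genotype, and their part was not tested.

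The ratio of Rab3a to Rab3b was 3.51 and 21.9 in 44 h KO cells, 3.04 and 3.54 in 0 h KO cells, 46.0 and 33.8 in 44 h WT cells and 3.49 and 2.39 in 0 h WT cells. For Rab27a to Rab27b the ratio was 1.62 and 8.79 in 44 h KO cells, 2.17 and 1.21 in 0 h KO cells, 11.1 and 11.6 in 44 h WT cells and 1.14 and 1.24 in 0 h WT cells. In both pairs the library labelled KO replicate 1 at 44 h stayed near the 0 h ratios, and replicate 2 lay between those and the WT ratios at 44 h. Rab31 to Rab22a, a partner of endosomal sorting, was 1.67 and 2.65 in 44 h KO cells, 1.30 and 1.01 in 0 h KO cells, 4.38 and 3.18 in 44 h WT cells and 1.41 and 1.05 in 0 h WT cells. Rab33a to Rab33b was 2.52 and 4.38 in 44 h KO cells, 2.13 and 1.14 in 0 h KO cells, 4.04 and 3.50 in 44 h WT cells and 1.76 and 1.64 in 0 h WT cells. Coding sequences (GENCODE M21) were 76.3% identical between Rab3a and Rab3b and 69.5% between Rab27a and Rab27b, and across 15 such pairs identity ran from 67.6% to 79.2%.

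**Figure D4:**
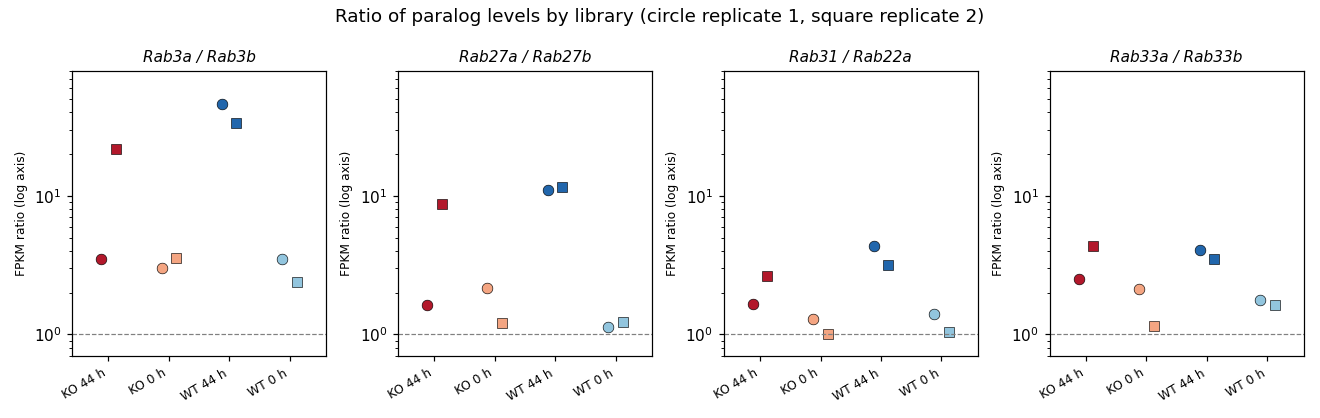
Ratio of FPKM between 2 paralogs in each library, on a log axis, by group from left to right KO 44 h, KO 0 h, WT 44 h and WT 0 h; circles are replicate 1, squares replicate 2 and the dashed line marks equal levels. The Rab3a to Rab3b ratio is highest in 44 h WT cells, at 46.0 and 33.8.

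Between genotypes at 44 h no RAB was called, where 0.0219% of all genes were (3 genes), and 4 of 47 had an unadjusted p under 0.05, where 9.79% of all genes did. Of the 4, 3 were lower in KO, Rab3a, Rab27a and Rab31, and Rab32, given above, was higher. Rab3a had 11.8 and 32.6 FPKM in 44 h KO cells against 47.1 and 44.5 FPKM in 44 h WT cells. The difference was -1.17 ± 0.41 log2 units (limma, adjusted p = 0.497). Rab27a differed by -1.17 ± 0.49 log2 units (limma, adjusted p = 0.506) and Rab31 by -0.75 ± 0.27 log2 units (limma, adjusted p = 0.497). Their groups did not overlap, with the library labelled KO replicate 1 the lowest of the 4 each time. Without KO replicate 2 at 44 h, these 3 were called lower (5.85% of all genes), at -1.87 ± 0.20 (limma, adjusted p = 0.00902) for Rab3a, -2.00 ± 0.27 (limma, adjusted p = 0.0155) for Rab27a and -1.13 ± 0.22 (limma, adjusted p = 0.0403) for Rab31. That fit leaves the library labelled KO replicate 1, which stood apart from its partner, as the sole KO library at 44 h, and the spread assumed for it comes from the other groups. Without KO replicate 1 at 44 h none was called (0.0511% of all genes), and the differences were -0.48 for Rab3a, -0.35 for Rab27a and -0.36 for Rab31 (log2). Rab33a and Rab20, by contrast, had KO values at 44 h on both sides of the WT values. Rab33a differed by -0.02 ± 0.32 log2 units (limma, adjusted p = 0.990) and Rab20 by -0.03 ± 0.38 log2 units (limma, adjusted p = 0.983).

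At 0 h no RAB was called either, where 0.0365% of all genes were (5 genes), and 3 of 47 had an unadjusted p under 0.05, where 9.69% of all genes did. These were Rab38 and Rab2a, given above, and Rab21, a RAB of integrin endocytosis. Rab21 had 6.32 and 4.82 FPKM in 0 h KO cells against 3.43 and 2.71 FPKM in 0 h WT cells. This made a difference of 0.69 ± 0.22 log2 units (limma, adjusted p = 0.429). At 44 h it had 3.18 and 3.10 FPKM in KO cells against 3.12 and 2.43 FPKM in WT cells. The KO libraries at 0 h were the highest of the 8. Rab8a, the most abundant secretory RAB and one that also serves the cilium, had 91.4 and 99.95 FPKM in 0 h KO cells against 104 and 100.3 FPKM in 0 h WT cells, groups separated only narrowly, and 85.3 and 117 FPKM in 44 h KO cells against 105 and 116 FPKM in 44 h WT cells, which overlapped. Rab28, a ciliary RAB, had 36.9 and 40.4 FPKM in 0 h KO cells against 44.6 and 39.2 FPKM in 0 h WT cells, and 39.8 and 48.3 FPKM in 44 h KO cells against 46.5 and 34.6 FPKM in 44 h WT cells, which overlapped at both times.

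The test of a genotype difference in the 44 h change (the interaction) called no RAB, where 0.0438% of all genes were called (6 genes), and 2 of 47 had an unadjusted p under 0.05, where 1.82% of all genes did. The 2 were Rab27a, at -1.66 ± 0.69 log2 units (limma, adjusted p = 0.9999), and Rab3a, at -1.61 ± 0.57 log2 units (limma, adjusted p = 0.9999). Both had a smaller change in KO. With the library labelled KO replicate 1 as the sole KO library at 44 h, and the spread taken from the other groups, both were called (0.570% of all genes), at -2.31 ± 0.26 (limma, adjusted p = 0.0253) for Rab3a and -2.49 ± 0.34 (limma, adjusted p = 0.0438) for Rab27a. Without KO replicate 1 at 44 h neither was (0.0804% of all genes), at -0.92 for Rab3a and -0.83 for Rab27a (log2).

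As a family, the RABs centred near 0. The median RAB difference was 0.03 (log2) at 44 h in KO, with 27 of 47 above 0, where the median of all genes was -0.11, and 0.02 at 44 h in WT, with 24 above 0, where the median of all genes was -0.13. Median-of-ratios scaling moved these to 0.18 for RABs (32 above 0) and 0.03 for all genes in KO, and to 0.14 for RABs (33 above 0) and -0.01 for all genes in WT. Between genotypes the RAB median was -0.06 at 44 h and -0.05 at 0 h, where the medians of all genes were 0.05 and 0.03. Counting members whose libraries did not overlap, 9 of 47 were higher and 10 lower at 44 h in KO, where 14.3% and 34.1% of all genes were. In WT 16 were higher and 11 lower at 44 h, where 22.5% and 40.6% of all genes were. At 44 h 5 members were higher and 12 lower in KO than in WT (23.9% and 15.1% of all genes), and at 0 h 12 were higher and 12 lower (27.3% and 19.1% of all genes).

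In the role groups the differences at 44 h spread unequally. Over all 13 tested members of the ER, Golgi and lipid droplet group, they ran from -0.51 to 1.08 in KO and from -0.57 to 1.16 in WT, with Rab30 the lowest and Rab33a the highest in both. The 7 early endosome genes ran from -0.66 to 0.93 in KO and from -0.39 to 1.46 in WT, and the 7 recycling genes from -0.39 to 0.70 in KO and from -0.45 to 0.69 in WT. The 9 secretory genes spanned the widest range in WT, from -1.14 to 1.99, and ran from -0.76 to 0.38 in KO. Late endosomal, lysosomal and autophagy genes (4 tested) had the narrowest range, from -0.04 to 0.22 in KO and from -0.07 to 0.09 in WT. The 5 tested members of cilium and other roles ran from -0.48 to 0.18 in KO and from -0.39 to 0.20 in WT.

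Among the machinery around the RABs, effectors and regulators were read from 4 lists, and none of their genes was called in any of the 5 comparisons of the model of all groups. In the fit of WT libraries, where 6.90% of all genes were called, the GEF list (36 tested) had 1 gene higher and 0 lower. The GAP list (31) had 0 higher and 1 lower, and the effector list (43) 1 higher and 1 lower. The prenylation and delivery list (7) had none. Rph3al, an effector of Rab3 and Rab27 proteins in secretion, had 14.8 and 14.0 FPKM in 44 h KO cells against 35.6 and 34.2 FPKM in 0 h KO cells, and 13.8 and 12.4 FPKM in 44 h WT cells against 30.7 and 39.5 FPKM in 0 h WT cells. Every library at 44 h lay below every library at 0 h, whereas Rab3a and Rab27a had their highest values in 44 h WT cells. Its difference was -1.22 ± 0.17 (limma, adjusted p = 0.0689) in KO and -1.35 ± 0.17 (limma, adjusted p = 0.0619) in WT, and the WT fit gave -1.35 ± 0.18 (limma, adjusted p = 0.0202).

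The synaptotagmin-like Rab27 effectors Sytl3 and Sytl2 differed in direction. Sytl3 had 0.366 and 4.19 FPKM in 44 h KO cells against 0.366 and 0.237 FPKM in 0 h KO cells, and 4.47 and 2.46 FPKM in 44 h WT cells against 0.136 and 0.341 FPKM in 0 h WT cells, with 1.82 ± 0.28 (limma, adjusted p = 0.0299) in the WT fit. Among the 44 h KO libraries only replicate 2 lay above both KO libraries at 0 h, as for Rab3a and Rab27a. Sytl2 had 5.44 and 3.91 FPKM in 44 h KO cells against 10.4 and 11.9 FPKM in 0 h KO cells, and 4.47 and 5.81 FPKM in 44 h WT cells against 13.1 and 10.1 FPKM in 0 h WT cells, a WT difference of -1.04 ± 0.23 (limma, adjusted p = 0.102).

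Tbc1d10a, a GAP with activity on Rab27a and Rab35, had 23.9 and 18.5 FPKM in 44 h KO cells against 41.4 and 47.8 FPKM in 0 h KO cells, and 19.8 and 18.5 FPKM in 44 h WT cells against 31.8 and 38.7 FPKM in 0 h WT cells. It was called lower in the WT fit, at -0.84 ± 0.16 (limma, adjusted p = 0.0443). Trappc1, a core subunit of the TRAPP complexes that activate Rab1, had 119 and 193 FPKM in 44 h KO cells against 106 and 115 FPKM in 0 h KO cells, and 213 and 240.1 FPKM in 44 h WT cells against 143 and 127 FPKM in 0 h WT cells. It was called higher in the WT fit, at 0.74 ± 0.14 (limma, adjusted p = 0.0428). Tbc1d15, a GAP for Rab7, had 109 and 88.5 FPKM in 44 h KO cells against 149.7 and 167 FPKM in 0 h KO cells, and 75.2 and 61.5 FPKM in 44 h WT cells against 106 and 117 FPKM in 0 h WT cells, and was not called. Rab3gap1, which inactivates Rab3 and in a complex with its partner activates Rab18, had 13.2 and 14.7 FPKM in 44 h KO cells against 23.3 and 23.9 FPKM in 0 h KO cells, and 14.5 and 12.3 FPKM in 44 h WT cells against 18.8 and 23.6 FPKM in 0 h WT cells. It differed at 44 h by -0.72 ± 0.18 (limma, adjusted p = 0.114) in KO and -0.62 ± 0.18 (limma, adjusted p = 0.120) in WT.

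Trappc9, a subunit of a TRAPP complex, gave the smallest p of the GEF list between genotypes. It had 293 and 195 FPKM in 44 h KO cells against 113 and 105 FPKM in 44 h WT cells, a difference of 1.12 ± 0.28 (limma, adjusted p = 0.457). At 0 h it had 532 and 378 FPKM in KO against 133 and 197 FPKM in WT, a difference of 1.46 ± 0.28 (limma, adjusted p = 0.271). The genotypes overlapped at neither time. The oocyte marker sums given above were likewise higher in KO than in WT at each time, and lower at 44 h than at 0 h as were Rph3al, Sytl2, Tbc1d10a and Tbc1d15. Their part in these values was not tested.

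**Figure D5:**
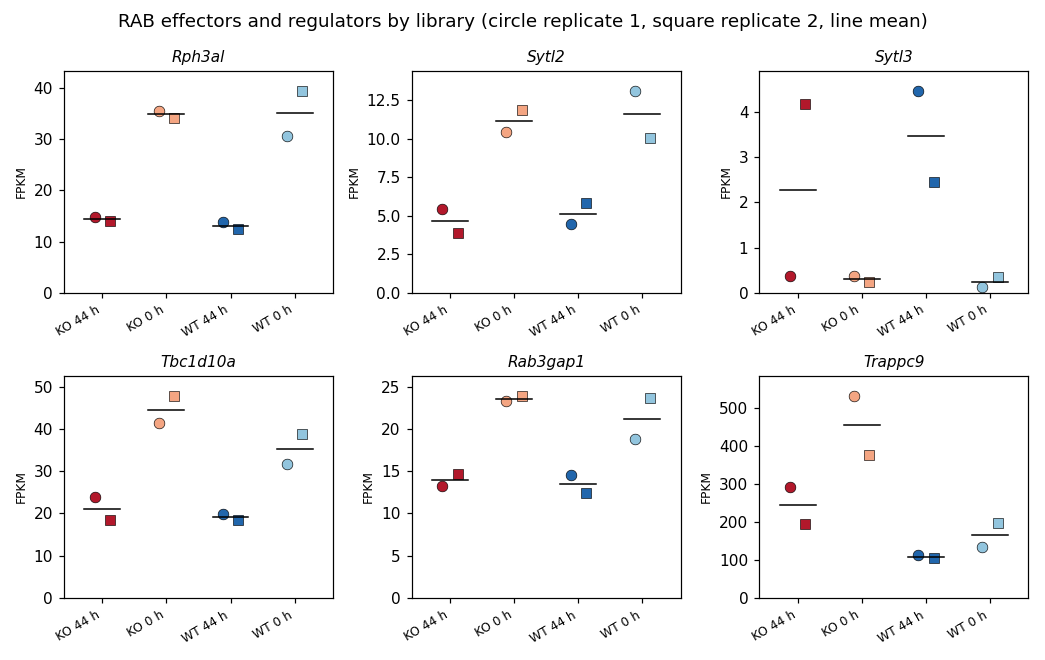
FPKM of 6 RAB effectors and regulators in each library, by group from left to right KO 44 h, KO 0 h, WT 44 h and WT 0 h; circles are replicate 1, squares replicate 2 and lines group means, and each axis starts at 0. Rph3al lies between 12.4 and 14.8 FPKM at 44 h and between 30.7 and 39.5 FPKM at 0 h.

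Among members outside the naming rule, chosen after their values were seen, Rab25 and Rab35 stand for opposite kinds of spread. Rab25, a recycling RAB of epithelial cells, had 1.02 and 2.37 FPKM in 44 h KO cells, 2.41 and 1.46 in 0 h KO cells, 3.99 and 0.384 in 44 h WT cells and 0.515 and 0.747 in 0 h WT cells, and was the sole tested member at least 1 (log2) apart within the WT pair at 44 h. The summed FPKM of 7 oviduct and ciliated cell markers was 7.77 and 309 in 44 h KO cells, 70.8 and 13.2 in 0 h KO cells, 380.1 and 8.80 in 44 h WT cells and 6.90 and 16.9 in 0 h WT cells, none listed at 0, with both Rab25 and these markers higher in replicate 1 of WT at 44 h; their part in Rab25 was not tested. Rab35, of fast recycling, varied little within groups, at 8.54 and 8.36 FPKM in 44 h KO cells, 11.7 and 11.03 in 0 h KO cells, 8.81 and 7.42 in 44 h WT cells and 12.4 and 10.4 in 0 h WT cells. Its libraries at 44 h were all below those at 0 h, and its difference was -0.39 ± 0.18 log2 units (limma, adjusted p = 0.273) in KO and -0.45 ± 0.18 log2 units (limma, adjusted p = 0.190) in WT.

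Some members share exons with other genes in GENCODE M21 (GRCm38): 20 of the 56 do, 15 of them with a gene on the opposite strand. The kits named in the labels are not described as stranded, so reads of such pairs cannot be told apart there. Rab24, of autophagy, overlaps Prelid1 over 62.4% of its exon bases, Rab4b overlaps the gene model Gm21983 over 65.0%, and Rab20 overlaps a long noncoding RNA over 25.6%, so their levels are uncertain. The level of Rab6a is uncertain too, as it overlaps Mrpl48 on the opposite strand over 19.0% of its exon bases. Rab43 overlaps the gene model Gm45140 over 75.4% and Rab2b the gene model Gm43766 over 59.3%, so their levels are uncertain as well. Rab3a shares 1.30% of its exon bases with Mpv17l2 and Rab27a 3.84% with a pseudogene, while Rab31, Rab33a, Rab38 and Rab32 share none. Mpv17l2 had 113 and 147 FPKM in 44 h WT cells against 64.6 and 52.0 FPKM in 0 h WT cells. In KO cells it had 73.9 and 87.1 FPKM at 44 h against 57.5 and 59.7 FPKM at 0 h. Its part in the Rab3a values was not tested.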

How the data were processed

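RNA libraries of mouse granulosa cells were analysed from 1 table of FPKM values for 23235 genes that the authors deposited. Per the submitters' processing notes, the tools were Cufflinks 2.2.1 and TopHat2 2.1.1 and the build was mm9. The gene annotation is not given in the sources used here. Per the labels' protocols, RNA was extracted with Trizol, and both a TruSeq RNA and a TruePrep DNA kit were used. FPKM are not counts, read depth per library is not in the table, and no count model was used. The FPKM sum per library ran from 675557 to 753216.

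Values were analysed as log2(FPKM + 1), which understates the change of low genes, and a gene entered the tests when 2 or more libraries reached 1 FPKM (13688 did). The fit gave each group a mean and used all 8 libraries (limma 3.58.1, R 4.3.3; trended empirical Bayes, two-sided, 4 residual degrees of freedom), for 5 comparisons: KO against WT at 44 h and at 0 h, 44 h against 0 h in KO and in WT, and their interaction. Benjamini-Hochberg adjustment ran over all tested genes of a comparison. The fit was also run on simulated data in which all groups shared the same spread per gene. That run does not cover the wider spread of the KO pair at 44 h. Tables were handled in Python 3.11.15 with pandas 2.3.3.

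The members and gene lists were chosen with earlier results of these data known, and the alternatives covered pseudocount, filter, scaling, replicate block, only the groups compared, and each library left out. Members were named when called in a fit of all libraries or of only the groups compared, when among the 5 of smallest p in a comparison, when highest in their role group, or when among the 5 highest overall (20 named); of the pathway lists, called genes and those of smallest p, 1 of which is not reported here. Other members are marked where given. Promoters came from RefSeq (GRCm38.p6), coding sequences and exon overlaps from GENCODE M21; these differ from the authors' build, so no position is shared with the FPKM table.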

Additional observations from a re-analysis of the deposited data

Results flagged for a closer look

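For Rab27a and Rab3a the genotypes did not overlap at either time, with KO lower at 44 h and higher at 0 h. Of all genes, 15.1% were lower at 44 h and 27.3% higher at 0 h without overlap. The 0 h difference was 0.49 ± 0.49 log2 units (limma, adjusted p = 0.837) for Rab27a. For Rab3a it was 0.44 ± 0.41 log2 units (limma, adjusted p = 0.819). Neither gene was called at either time in the model of all groups. Rab27a had 3.75 and 13.9 FPKM in 44 h KO cells against 19.6 and 16.5 FPKM in 44 h WT cells, and 7.49 and 5.44 FPKM in 0 h KO cells against 3.85 and 4.74 FPKM in 0 h WT cells. The interaction was -1.66 ± 0.69 log2 units (limma, adjusted p = 0.9999). Rab3a had 11.8 and 32.6 FPKM in 44 h KO cells against 47.1 and 44.5 FPKM in 44 h WT cells, and 16.1 and 14.0 FPKM in 0 h KO cells against 9.78 and 11.9 FPKM in 0 h WT cells. The interaction was -1.61 ± 0.57 log2 units (limma, adjusted p = 0.9999). Neither interaction passed the test, and the lowest library at 44 h was the one labelled KO replicate 1 in both genes.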

How the results depend on the processing

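In the model of all groups 0 RABs were called in each of the 5 comparisons, and the number moved only with the libraries in the fit. With only the groups compared it was 5 for 44 h against 0 h in WT and 0 in the other 3 comparisons so fitted. With each library left out in turn it ran from 0 to 4 for 44 h against 0 h in KO. For 44 h against 0 h in WT it ran from 0 to 5. It ran from 0 to 3 for KO against WT at 44 h and from 0 to 2 for the interaction. For KO against WT at 0 h it stayed 0. All values above 0 came from fits that lacked a KO library at 44 h. In the WT comparison such a fit keeps the differences and alters only the estimated spread. In the comparisons that use the KO pair at 44 h, the differences themselves move too. For Rab3a at 44 h against 0 h in KO they ran from -0.32 to 1.07 (log2). For 45 differences of single members (every one with an unadjusted p under 0.05 or among the 5 of smallest p in a comparison, and the others given with a test in the text), 664 alternative values gave 24 new calls and 7 changes of direction. The 7 came from leaving out a library and touched 4 differences, whose values without 1 library ran from -0.32 to 1.07 for Rab3a and from -0.64 to 1.01 for Rab27a at 44 h against 0 h in KO, and from -0.57 to 0.51 for Rab20 and from -0.36 to 0.32 for Rab33a in KO against WT at 44 h. The numbers of all genes called were more sensitive: beside 19 for 44 h against 0 h in KO they were 45 with no filter and 10 with a pseudocount of 0.1, and beside 11 for 44 h against 0 h in WT they were 32 with no filter, 30 with median-of-ratios scaling (24 of them higher, where 7 of 11 were), 7 with quantile normalization and 945 with only the WT groups. For KO against WT without a filter they were 27 at 44 h and 37 at 0 h, against 3 and 5, and 41 for the interaction, against 6. Libraries of different groups share only a replicate number: deviations of same-numbered libraries correlated at -0.11 to -0.01 across genes, and with a replicate block 0 RABs were called in each comparison, and 6 genes in KO and 7 in WT at 44 h against 0 h. With 2 libraries a group and no read depth in the table, differences of low members such as Rab30 or Rab40b were not resolved.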
